A study of Homo sapiens with 9 samples.

Results

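The comparison described here set the hairpin shG9a_4, which targets EHMT2, against the scrambled control hairpin shSCR in MCF10A, human breast epithelial cells that grow as an immortal line. It rests on 6 of the 9 sequenced samples, 3 per hairpin, chosen by the hairpin in the sample labels and matched by replicate number from 1 to 3. The other 3 samples carried a further hairpin against EHMT2, shG9a_1, and served here to estimate the spread between replicates and to set beside shG9a_4. Every culture, controls included, carried ectopic MYC (pBABE-hygro-MYC) and a mutant PI3K (pMN-IRES-GFP-PI3KH1047R), and held its hairpin in a doxycycline-inducible vector (pLKO-tetON-puro). Doxycycline was given to all of them at 2 µg/mL over 72 h, so the controls were exposed to the drug and to a hairpin too. By the design text the replicates are biological. No source used here says whether the cultures were pools or single clones. The p-values, where not said otherwise, measure the spread left between cultures after replicate number is accounted for, over all 9 samples.

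G9a, the protein made from EHMT2, is a histone methyltransferase that places methyl groups on lysine 9 of histone H3, mostly the mono- and dimethyl marks found over repressed euchromatic genes. It acts as a heteromer with the related enzyme GLP, made from EHMT1, and the zinc finger proteins WIZ and ZNF644 belong to the same complex. MYC is a transcription factor that binds the E-box sequence CACGTG with its partner MAX and can raise or lower transcription. The series title links MYC, G9a, repression and tumour formation, so the comparison asks which transcripts differed once EHMT2 was knocked down with this hairpin.

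RNA was read as stranded total RNA with ribosomal RNA removed, and 53065611 to 76958831 reads per library were counted in genes. A gene's level is its count per library size, after TMM scaling, in CPM. Markers of a mammary epithelial line were present, with KRT5 at 1842 to 3038 CPM over the 6 libraries and 10 of 10 markers tested. Summed markers of endothelial cells came to 2.90 to 3.04 CPM in shSCR and 2.66 to 3.18 CPM in shG9a_4, with CLDN5 and TIE1 at 0. Immune cell markers came to 4.15 to 6.18 and 4.21 to 6.58 CPM, with MS4A1 and NKG7 among those at 0 and CD14 at 2.89 to 4.72 CPM. Fibroblast markers were higher, with sums of 194.1 to 377.1 CPM in shSCR and 176.9 to 470.6 CPM in shG9a_4. In bulk RNA such as this, fewer cells of a type and less RNA per cell cannot be told apart. The second shG9a_4 library stood apart from its replicates. Its chi-square per degree of freedom, over genes with at least 20 reads, was 59.1 and 78.9 against the first and the third, while the other pairs of libraries within a hairpin lay at 25.2 to 37.9. Values without it are given beside several results.

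EHMT2 (ENSG00000204371.11), the target, was at 51.1, 45.2 and 45.4 CPM in shSCR replicates 1 to 3 and at 32.1, 27.2 and 33.5 CPM in shG9a_4. All 3 knockdown libraries lay below all 3 controls, and each of the 3 same-number pairs was lower, at −0.67, −0.74 and −0.44 on the log2 scale. Control cultures averaged 47.3 ± 3.35 CPM and knockdown cultures 30.9 ± 3.32 CPM (SD, n = 3 in either group), and the fitted ratio was 0.653. The gene missed the threshold over all genes in the fit within replicate number, at a log2 fold change of −0.61 ± 0.108 (SE) and an adjusted p of 0.0907. All adjusted p-values of genes come from edgeR where no other tool is named. It passed in 5 of the 17 settings tried, in a range of adjusted p from 6.34e-09 to 0.549, and kept a negative log2 fold change of −0.69 to −0.51 in all of them. The shG9a_1 value was −1.21, and shG9a_4 minus shG9a_1 was 0.60 ± 0.110 (SE), at an adjusted p of 0.203.

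The partners of G9a did not pass the threshold. EHMT1, which encodes GLP, was at 46.5, 45.7 and 43.6 CPM in shSCR and 46.4, 37.1 and 47.9 CPM in shG9a_4, and its groups overlapped. WIZ was at 14.7, 12.4 and 13.7 CPM in shSCR and at 14.2, 8.99 and 16.7 CPM in shG9a_4. In both genes the second shG9a_4 library was the lowest of the 6. ZNF644 was at 156.9, 159.7 and 139.4 CPM against 127.3, 141.4 and 111.3 CPM, lower in each pair with overlapping groups. Its log2 fold change was −0.27 ± 0.063 (SE) at an adjusted p of 0.382, against −0.051 for EHMT1 and −0.052 for WIZ. MYC, whose counts include the ectopic transgene, was at 185.6, 168.6 and 204.2 CPM in shSCR and 186.0, 144.3 and 218.3 CPM in shG9a_4, a log2 fold change of −0.038 ± 0.078 (SE). Among the 22 genes listed for the writing, reading and removal of H3K9 methylation other than EHMT2 itself, 5 had a positive and 17 a negative log2 fold change. Their median was −0.039 and none passed, while the median over all genes tested was 0.00.

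Within replicate number, 14 of 18435 genes tested passed an adjusted p of 0.05 in edgeR, a share of 0.0759%, of which 13 rose and 1 fell. At an unadjusted p of 0.05 there were 903 genes, 548 higher and 355 lower, or 4.9% of those tested. That is about the share such a threshold lets through where no gene differs. The CPM values of the groups did not overlap in 1185 genes, 599 higher and 586 lower, a share of 6.43%. Neither count is a set of calls. The 13 genes that rose in edgeR did so by 1.35 to 1.75 times. Log2 fold changes beyond 1 in size were seen in 88 genes, but 85 of them were under 1 CPM in both groups and none passed. The fit gave the log2 fold changes with an SE of 0.119 at the median.

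**Figure D1:**
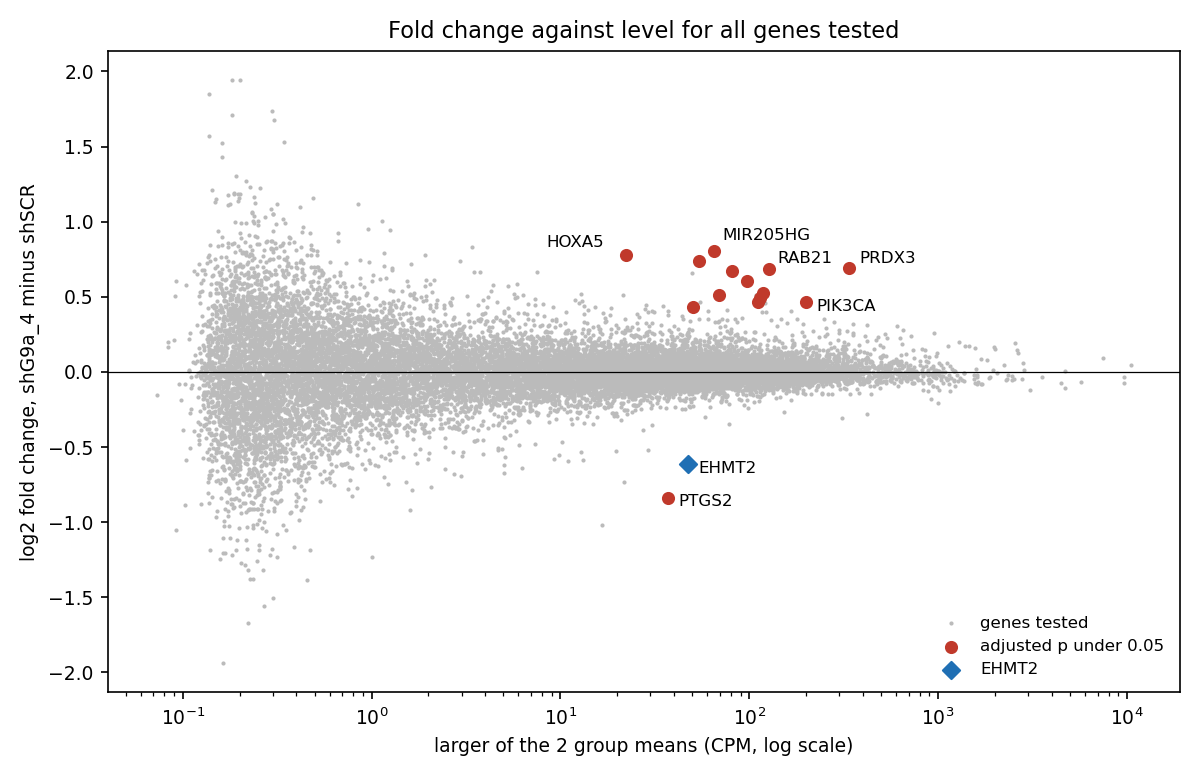
Each point is a gene tested, with the larger of its 2 group means in CPM on a log axis across and its log2 fold change, shG9a_4 minus shSCR, upward. The 14 red points are the genes that passed, 13 above and 1 below zero, and the blue diamond is EHMT2 at −0.61; the widest scatter lies under 1 CPM.

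The 13 genes that rose are described one by one. RAB21 (ENSG00000080371.5), a small GTPase of early endosomes, was at 81.1, 83.7 and 73.7 CPM in shSCR and at 132.2, 137.6 and 113.4 CPM in shG9a_4. Every shG9a_4 library was well above every control, and the 3 pairs differed by 0.71, 0.72 and 0.62 on the log2 scale. The log2 fold change was 0.68 ± 0.058 (SE) at an adjusted p of 0.00204, the lowest p of this comparison, and RAB21 was the one gene of the 14 that passed in all 17 settings. ANO6, a calcium-activated scramblase of membrane phospholipids, went from 80.7, 84.9 and 81.8 CPM to 116.9, 127.6 and 112.2 CPM, with no overlap. Its log2 fold change was 0.53 ± 0.064 (SE) at an adjusted p of 0.00974. CCDC25, a surface receptor for extracellular DNA, had control values close together, 49.8, 48.4 and 47.9 CPM, against 70.1, 72.4 and 65.7 CPM under the hairpin. For CCDC25 the log2 fold change was 0.51 ± 0.060 (SE) at an adjusted p of 0.00974. MFAP3, a glycoprotein associated with microfibrils, was at 76.0, 83.3 and 81.5 CPM and at 107.4, 118.8 and 106.9 CPM, a log2 fold change of 0.47 ± 0.067 (SE) at an adjusted p of 0.0274.

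TRIM37, a ubiquitin ligase, was at 47.4, 53.2 and 52.7 CPM in shSCR and at 79.6, 87.8 and 76.5 CPM in shG9a_4, and the groups lay far apart. It rose by a log2 fold change of 0.67 ± 0.068 (SE) at an adjusted p of 0.00406. CYLD, a deubiquitinase that restrains NF-kB signalling, went from 59.2, 71.2 and 60.3 CPM to 92.6, 113.1 and 85.1 CPM. The second culture was the highest in both groups, and the log2 fold change was 0.60 ± 0.072 (SE) at an adjusted p of 0.00974. TENT4B, a non-canonical poly(A) polymerase, went from 36.5, 37.6 and 37.3 CPM to 49.3, 53.9 and 47.2 CPM. This was the smallest of the 13 rises, a log2 fold change of 0.43 ± 0.064 (SE) at an adjusted p of 0.0384.

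PRDX3 (ENSG00000165672.6), a peroxidase of the mitochondrial matrix, was at 196.5, 229.0 and 198.1 CPM in shSCR and at 343.0, 373.5 and 294.8 CPM in shG9a_4. The groups did not overlap, and its log2 fold change was 0.69 ± 0.068 (SE) at an adjusted p of 0.00406. A pair of members of the PI3K pathway rose as well. PIK3CA, the catalytic subunit that is mutated in the ectopic construct, went from 125.2, 165.5 and 144.3 CPM to 175.1, 230.0 and 194.5 CPM. The control values spread widely, but the pairs were close to each other at 0.48, 0.47 and 0.43, and the log2 fold change was 0.46 ± 0.057 (SE) at an adjusted p of 0.00974. RHEB, the GTPase that activates mTORC1, went from 77.1, 87.0 and 78.2 CPM to 114.7, 121.9 and 104.3 CPM, a log2 fold change of 0.49 ± 0.061 (SE) at an adjusted p of 0.0101. Counts of PIK3CA do not separate the endogenous gene from the ectopic copy, and PRDX3, RHEB, PIK3CA and KRT14 have near-identical copies elsewhere in the genome, which makes their counts uncertain. Of the 30 genes listed for PI3K, AKT and mTORC1, PIK3CA and RHEB passed, against 0.0759% of all genes tested. An unadjusted p under 0.05 was seen in 13.3% of the list, 2 higher and 2 lower, against 4.9% of all genes tested. In this list 18 had a positive and 12 a negative log2 fold change, and the median was 0.011 (−0.015 to 0.025 over the alternatives). IRS1, an adaptor of the insulin receptor, picked out after its values were seen, had a log2 fold change of −0.32 (unadjusted p = 0.0111, adjusted 0.754).

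The remaining genes that rose varied widely between cultures of the same hairpin. MIR205HG, the host transcript of the microRNA miR-205, was at 26.7, 25.02 and 66.2 CPM in shSCR and at 46.4, 54.3 and 94.9 CPM in shG9a_4. The third culture was the highest in both groups and the groups overlapped, while each pair rose, by 0.80, 1.12 and 0.52 on the log2 scale. Its log2 fold change of 0.81 ± 0.097 (SE) at an adjusted p of 0.00974 was the largest of the 13 rises. HOXA5, a homeobox transcription factor, went from 9.73, 14.1 and 14.7 CPM to 15.96, 28.3 and 22.4 CPM, a log2 fold change of 0.78 ± 0.095 (SE) at an adjusted p of 0.00974. KRT14, a keratin of basal epithelial cells, went from 32.6, 19.8 and 47.9 CPM to 61.2, 35.5 and 66.1 CPM, with overlapping groups and a rise in each pair. For KRT14 the log2 fold change was 0.74 ± 0.097 (SE) at an adjusted p of 0.0148.

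The microRNA itself was not measured by this assay. Its mature 5p form, from RefSeq on GRCh38.p14 at chr1:209432166-209432187 on the plus strand, is shown because its host transcript differed most between shG9a_4 and shG9a_1 among the 14 genes; the capitals mark the seed, bases 2 to 8.
hsa-miR-205-5p: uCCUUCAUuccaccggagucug

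PTGS2, which encodes the prostaglandin synthase COX-2, was the one gene that fell. It was at 56.1, 41.1 and 13.95 CPM in shSCR and at 24.3, 26.6 and 8.83 CPM in shG9a_4. The third culture was the lowest in both groups, and the groups overlapped. The pairs differed by −1.21, −0.63 and −0.66 on the log2 scale. The log2 fold change was −0.84 ± 0.116 (SE) at an adjusted p of 0.0224. Among the 35 inflammatory and NF-kB targets tested it alone passed, with 17 positive and 18 negative log2 fold changes and a median of −0.002, which took either sign over the alternatives (−0.048 to 0.069). The list was split: SAA1, an acute-phase protein with near-identical copies, had a log2 fold change of 0.26 (adjusted p = 0.552), IL6 one of −0.28 (0.816) and BIRC3, an inhibitor of apoptosis, one of 0.22 (1.00), all 3 named after their values were seen.

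**Figure D2:**
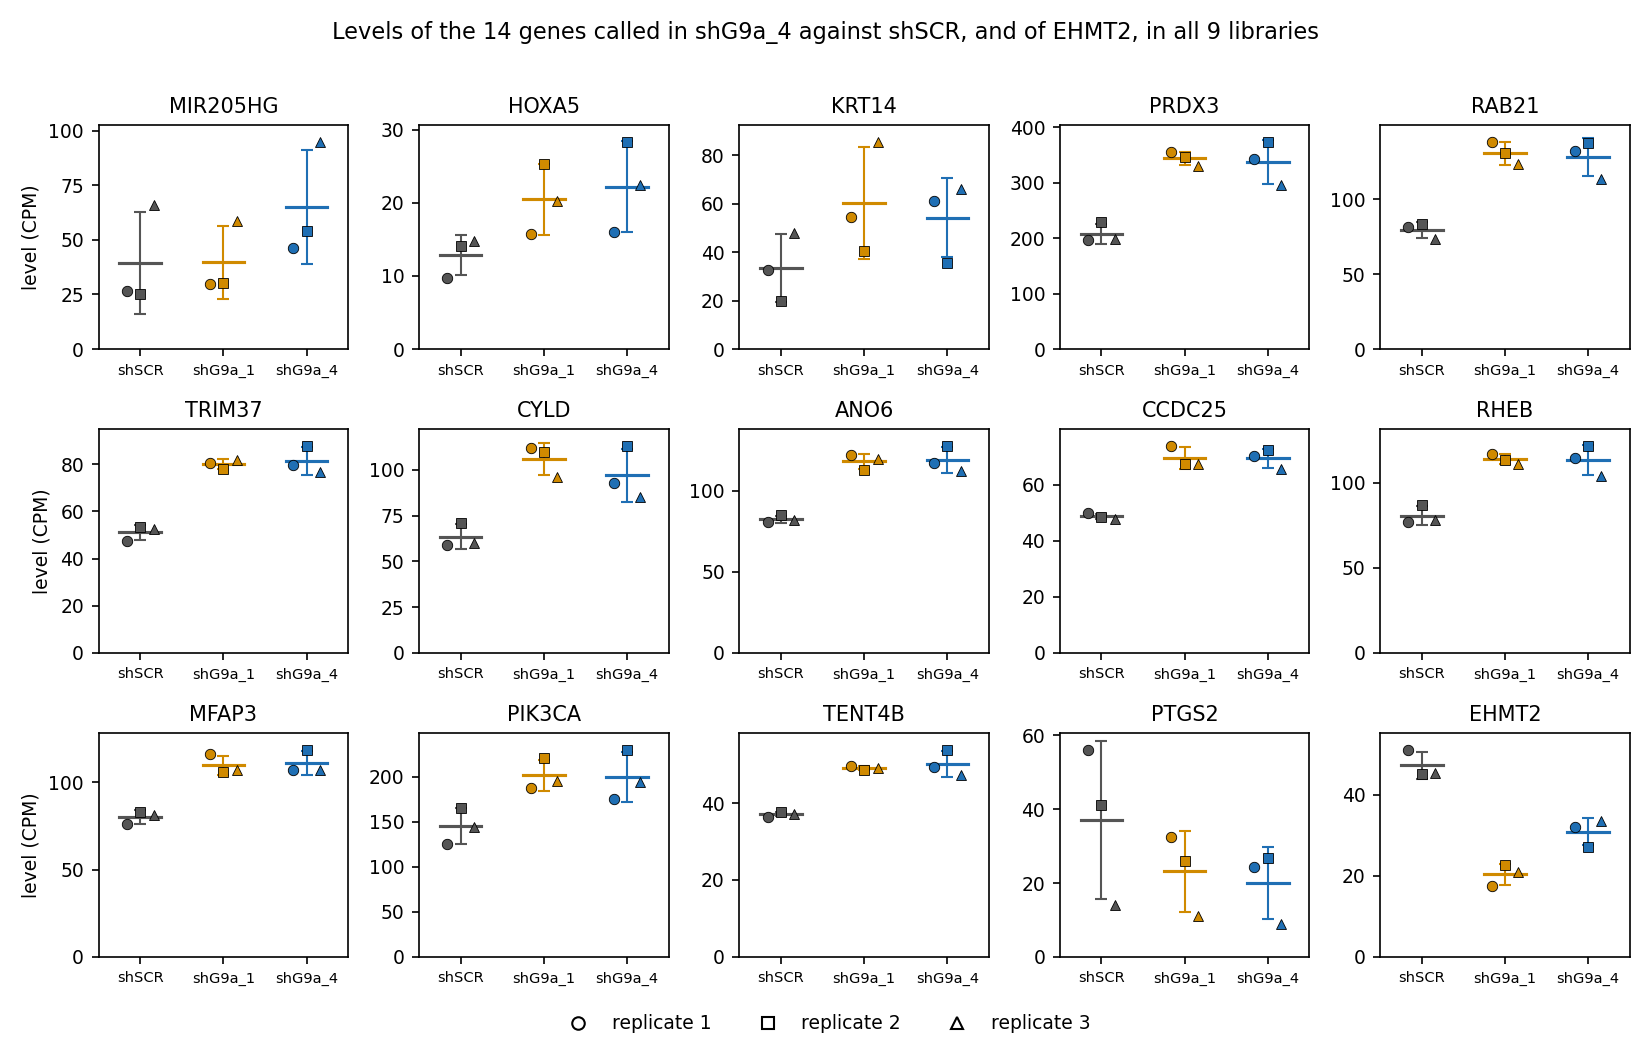
Each panel gives a gene's level in CPM, from 0, in the 9 libraries by hairpin; symbols mark the replicate number, the long line the mean and the bar the SD (n = 3). In 11 of the 14 genes the shG9a_4 libraries do not overlap shSCR, while MIR205HG, KRT14 and PTGS2 overlap, with the third replicate highest (lowest for PTGS2) under every hairpin.

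Part of these calls depended on pairing by replicate number. Without the block 5 genes passed in edgeR, namely RAB21, PRDX3, TRIM37, CCDC25 and ANO6, and all 5 rose. The other 9 then had adjusted p-values of 0.270 (CYLD), 0.104 (RHEB), 0.103 (MFAP3), 0.119 (TENT4B) and 1.00 (MIR205HG, HOXA5, PIK3CA, KRT14 and PTGS2). Over all 17 settings the adjusted p of the 14 genes ran from 1.34e-20 to 1.00, and all 14 kept their direction in each setting. Leaving out the first shSCR, the second shSCR or the first shG9a_4 library left RAB21 as the 1 gene that passed, and without the third shSCR library 6 of the 14 passed, with 1 further gene. Without the second shG9a_4 library, which stood apart, 11 of the 14 passed and KRT14, MFAP3 and TENT4B did not.

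Below the threshold, 9 further genes with a lower level were taken in order of their p, and their values are given without a call. PLAGL2, a zinc finger transcription factor, was at 10.5, 10.3 and 12.2 CPM in shSCR and at 6.55, 7.31 and 8.08 CPM in shG9a_4, with no overlap. Its log2 fold change was −0.59 ± 0.093 (SE) at an adjusted p of 0.0527, against −0.20 in shG9a_1. AKAP12, a scaffold for protein kinase A, had one of −0.73 (adjusted p = 0.226), with 33.2 CPM in the second control library and 11.4 to 17.2 CPM in the other 5. It was −0.46 without that control library. ITGA4, the integrin alpha-4 subunit, was at 25.5 to 28.6 CPM in shSCR and 19.8 to 23.4 CPM in shG9a_4, a log2 fold change of −0.39 (adjusted p = 0.226). The rest of these were AL360012.1 (−0.64), FBXO32 (−0.53), a ubiquitin ligase subunit, TMEM158 (−0.69), LPL (−1.23), which encodes lipoprotein lipase and was at most 1.60 CPM in any of the 6 libraries, RNVU1-6 (−0.57), a variant U1 small nuclear RNA, and EHMT2.

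The 250 bases upstream of the annotated start were available from RefSeq (GRCh38.p14) for 11 of the 14 genes, and not used here for CCDC25, HOXA5 and KRT14. They were searched for the MYC-MAX E-box CACGTG, which reads the same on both strands. It was found in 2 of the 11, RAB21 and PRDX3, and also in EHMT2, while 2228 of all 35116 windows of that length held it (6.34%). CYLD and TENT4B had several windows each, so the 2 of 11 counts genes and the 6.34% counts windows. The windows of RAB21, PRDX3 and EHMT2 are printed because they hold the E-box, which is shown in capitals. It begins 20 bases before the start of RAB21 (chr12:71754613-71754862, plus strand), 157 before that of PRDX3 (chr10:119178813-119179062, minus strand) and 30 before that of EHMT2 (chr6:31897699-31897948, minus strand). A match describes the sequence and shows no binding.
RAB21: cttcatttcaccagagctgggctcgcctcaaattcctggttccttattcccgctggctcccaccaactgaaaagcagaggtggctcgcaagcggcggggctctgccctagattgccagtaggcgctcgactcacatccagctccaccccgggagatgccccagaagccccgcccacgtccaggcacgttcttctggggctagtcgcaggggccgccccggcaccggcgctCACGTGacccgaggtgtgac
PRDX3: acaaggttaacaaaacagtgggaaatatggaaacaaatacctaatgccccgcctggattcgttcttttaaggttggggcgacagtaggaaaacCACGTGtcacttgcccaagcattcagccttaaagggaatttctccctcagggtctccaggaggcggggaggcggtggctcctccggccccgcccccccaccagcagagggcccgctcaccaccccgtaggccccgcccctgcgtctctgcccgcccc
EHMT2: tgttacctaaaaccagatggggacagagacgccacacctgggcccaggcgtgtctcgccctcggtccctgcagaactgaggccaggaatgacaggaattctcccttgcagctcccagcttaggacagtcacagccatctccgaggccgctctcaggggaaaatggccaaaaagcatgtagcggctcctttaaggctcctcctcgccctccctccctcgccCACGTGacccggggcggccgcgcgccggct

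Against shG9a_1, 0 of 18435 genes passed in edgeR, 1619 had an unadjusted p under 0.05 (731 higher and 888 lower in shG9a_4, a share of 8.78%), and limma voom called 0 and DESeq2 95. Both hairpins share the shSCR libraries, so what follows sets their values side by side and is no independent repeat. In the same edgeR fit 143 genes passed in shG9a_1 against shSCR, among them 13 of the 14 genes, all but MIR205HG. EHMT2 passed there at an adjusted p of 0.00192. RAB21 had log2 fold changes of 0.68 and 0.72 in shG9a_4 and shG9a_1, PRDX3 of 0.69 and 0.73, TRIM37 of 0.67 and 0.65 and CCDC25 of 0.51 and 0.51. In 12 of the 14, which were chosen by their calls in shG9a_4, the hairpins differed by less than 0.15. EHMT2 itself was at 30.9 ± 3.32 CPM in shG9a_4 and 20.4 ± 2.59 CPM in shG9a_1 (SD, n = 3 each). Whether the genes follow the level of EHMT2 was not tested. MIR205HG differed most: it was at 29.7, 30.4 and 58.9 CPM in shG9a_1, near the controls. There it was 0.081 on the log2 scale, at an adjusted p of 0.778, and the difference between the hairpins was 0.73 ± 0.097 (SE; unadjusted p = 1.06e-05, adjusted 0.0652). PTGS2 had −0.84 and −0.61 and a difference of −0.23 ± 0.116 (SE) at an adjusted p of 0.628.

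**Figure D3:**
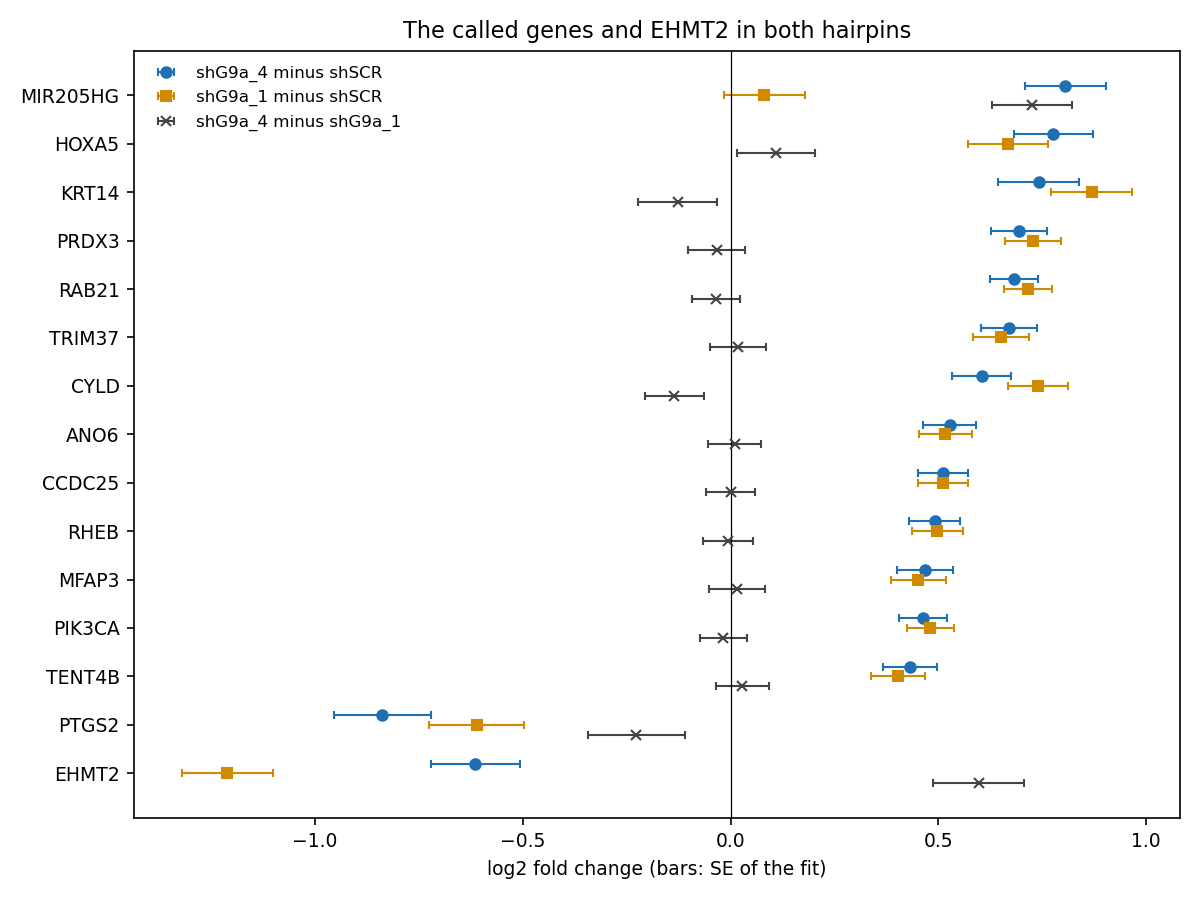
Log2 fold changes of the 14 genes and EHMT2 for shG9a_4 minus shSCR (circles), shG9a_1 minus shSCR (squares) and shG9a_4 minus shG9a_1 (crosses), with bars of 1 SE of the fit. Circles and squares lie close together except in MIR205HG (0.81 and 0.081), PTGS2 (−0.84 and −0.61) and EHMT2 (−0.61 and −1.21).

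Gene lists written from general knowledge are described by their counts and medians. Their 905 distinct members tested held 3 genes that rose (KRT14, PIK3CA and RHEB) and 1 that fell (PTGS2). An unadjusted p under 0.05 was seen in 9.28% of the members, against 4.9% of all genes tested. All genes tested included 4886 under 1 CPM in all 6 libraries. The lists were written with earlier results of these data known, so these shares are no test of the lists.

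Basal and myoepithelial genes had the highest median of the 33 lists. Of 26 tested, 22 had a positive log2 fold change, 1 passed (KRT14) and 10 had an unadjusted p under 0.05, all higher (38.5%, against 4.9% of all genes tested). The median was 0.24 in the fit and 0.32, 0.077 and 0.082 in the 3 pairs, and it was 0.11 without the first shSCR library, 0.12 without the first shG9a_4 library and 0.19 without the second. In shG9a_1 against shSCR the median of this list was 0.30. Those named next, after their values were seen, had the lowest p-values among the rest. COL17A1, a collagen of hemidesmosomes, was at 71.8, 86.3 and 110.3 CPM in shSCR and 124.6, 116.2 and 124.0 CPM in shG9a_4, a log2 fold change of 0.46 ± 0.099 (SE) at an adjusted p of 0.279. DSG3, a desmosomal cadherin, was at 74.8, 51.3 and 112.0 CPM against 100.4, 98.7 and 127.8 CPM, a log2 fold change of 0.51 (adjusted p = 0.306). ITGA6, the laminin-binding integrin alpha-6, was at 339.8, 287.6 and 405.2 CPM against 418.9, 420.6 and 428.4 CPM, a log2 fold change of 0.31 (adjusted p = 0.514) that was 0.19 without the second shG9a_4 library. In each of these 3 genes the shG9a_4 cultures lay closer together than the controls. TP63, the transcription factor of basal cells, had a log2 fold change of 0.43 (adjusted p = 0.816), and KRT5, their main keratin, one of 0.15 (1.00). The summed level of the list was 6974 to 9005 CPM in shSCR and 7286 to 9311 CPM in shG9a_4, so the groups overlapped. Fibroblast markers had a positive log2 fold change in 8 of 8 tested, with a median of 0.16, against 0.42 in shG9a_1. Their summed levels were 194.1 to 377.1 CPM in shSCR and 176.9 to 470.6 CPM in shG9a_4. None passed, and their part in the values of other lists was not tested.

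Among genes reported as repressed by MYC, such as cell cycle inhibitors and adhesion genes, none of 42 tested passed, 28 had a positive and 14 a negative log2 fold change, and the median was 0.041. By pair the median was 0.11, −0.039 and 0.017, and in shG9a_1 it was 0.19. It was −0.022 without the first shSCR library and −0.002 without the third. Their lowest p-values were those of ITGA6 and of SESN3, a stress-induced regulator of mTORC1, which was at 1.20, 1.64 and 1.30 CPM against 1.72, 3.06 and 1.67 CPM (0.61 ± 0.167 on the log2 scale, SE; adjusted p = 0.524). CDKN1A, the cell cycle inhibitor p21, was at 219.1, 298.3 and 269.4 CPM and at 318.6, 256.6 and 269.6 CPM, with overlapping groups (named after its values were seen). Genes reported as activated by MYC had a median of −0.052, with 44 of 53 negative and none passing. Groups did not overlap in 6 lower and 2 higher members, 15.1% of the list against 6.43% of all genes tested. The 2 members with the lowest p were higher, against the list's median. POLR3G, a subunit of RNA polymerase III, had a log2 fold change of 0.35 ± 0.068 (SE) at an adjusted p of 0.164. CCND2, a D-type cyclin, had one of 0.41 ± 0.084 (SE) at an adjusted p of 0.226. CCND2 was at 44.5, 43.4 and 48.8 CPM in shSCR and at 61.8, 57.3 and 62.0 CPM in shG9a_4, with no overlap.

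Genes of DNA replication and the G1/S transition had 47 of 51 negative log2 fold changes, a median of −0.071, and medians of −0.045, −0.099 and −0.074 in the pairs. In shG9a_1 the median was −0.12. None passed, and their groups did not overlap in 11 genes that were lower and 1 that was higher, 23.5% of the list against 6.43% of all genes tested. CDC25A, a phosphatase that starts S phase, was at 104.6, 103.6 and 105.9 CPM in shSCR and 98.0, 90.4 and 94.0 CPM in shG9a_4 (log2 fold change −0.16, adjusted p = 0.998; named after its value was seen). GINS3, of the replicative helicase, had a log2 fold change of −0.19 (adjusted p = 0.953), and PCNA, the sliding clamp, whose counts near-identical copies make uncertain, one of 0.22 (0.645). Replication-dependent histone genes were negative in 38 of 40, with a median of −0.118. By pair it was 0.036, −0.47 and 0.051, and without the second shG9a_4 library it was 0.053. In shG9a_1 it was −0.16. Genes of G2/M and mitosis had a median of 0.034, which was −0.035 without that library.

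Interferon-stimulated genes were positive in 41 of 51, with a median of 0.091 and pair medians of 0.054, 0.14 and 0.015. None passed, and 9 had an unadjusted p under 0.05, all higher (17.6%, against 4.9% of all genes tested). Over the alternatives the median was 0.047 to 0.138, and it was 0.047 without the second shSCR and 0.052 without the second shG9a_4 library. PSMB8, an immunoproteasome subunit, was at 44.3, 45.0 and 43.4 CPM against 50.1, 53.9 and 46.6 CPM (log2 fold change 0.18, adjusted p = 0.766). IFI44L was at 84.6, 81.0 and 80.5 CPM against 91.7, 105.3 and 89.6 CPM (0.22, adjusted p = 0.778, and 0.14 without the second shG9a_4 library). In both genes the groups did not overlap, and the differences were small. The list's median was 0.23 in shG9a_1.

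Cholesterol synthesis genes were positive in 20 of 24 with a median of 0.087, against −0.071 in shG9a_1, and 13 of the 24 had an unadjusted p under 0.05 for the difference between the hairpins, against 8.78% of all genes tested, and none passed. Without the second or the third shSCR library the median was 0.041 or 0.043, and without the first it was 0.162. MSMO1, a sterol oxidase, was at 281.3, 253.7 and 315.8 CPM in shSCR and 304.5, 373.2 and 386.1 CPM in shG9a_4, a log2 fold change of 0.32 (adjusted p = 0.472). STARD4, a sterol carrier, had one of 0.29 (adjusted p = 0.524), with no overlap between the groups. The NRF2 targets had a median of 0.028 here, which was −0.017 without the first shSCR library, and 0.15 in shG9a_1. HMOX1, heme oxygenase, named after its values were seen, was at 27.9, 17.8 and 33.6 CPM in shSCR and 45.0, 13.9 and 45.3 CPM in shG9a_4, with the second pair going the other way. Its log2 fold change was 0.25, against 1.22 in shG9a_1, and the difference of −0.97 (unadjusted p = 5.44e-05) did not pass over all genes. EPCAM, an epithelial adhesion molecule also named on sight, had 0.13 against −0.57. Its difference of 0.70 (unadjusted p = 7.34e-05) did not pass over all genes either.

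Mesenchymal and matrix genes had a median of 0.002 with 21 positive and 19 negative, against 0.20 in shG9a_1. The p53 targets were positive in 24 of 32 with a median of 0.070. By pair it was 0.17, −0.0063 and 0.0021, and it was 0.019 without the first shSCR library. In shG9a_1 it was 0.13. FAS, the death receptor, was at 59.7, 64.2 and 63.3 CPM against 71.4, 78.5 and 70.2 CPM (log2 fold change 0.23, adjusted p = 0.654). Cytosolic ribosomal protein genes had a median of −0.043, with 47 of 56 negative. Mitochondrially encoded mRNAs were positive in 12 of 13 with a median of 0.15, but the first pair had a median of −0.22 and the others 0.19 and 0.32, and it was −0.082 without the third shG9a_4 library. No member of these 4 lists passed. The germline and cancer-testis list had almost no reads in these cells: 38 of 39 members were under 1 CPM in all 6 libraries, and 21 of them, many of the MAGE family, had no read.

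**Figure D4:**
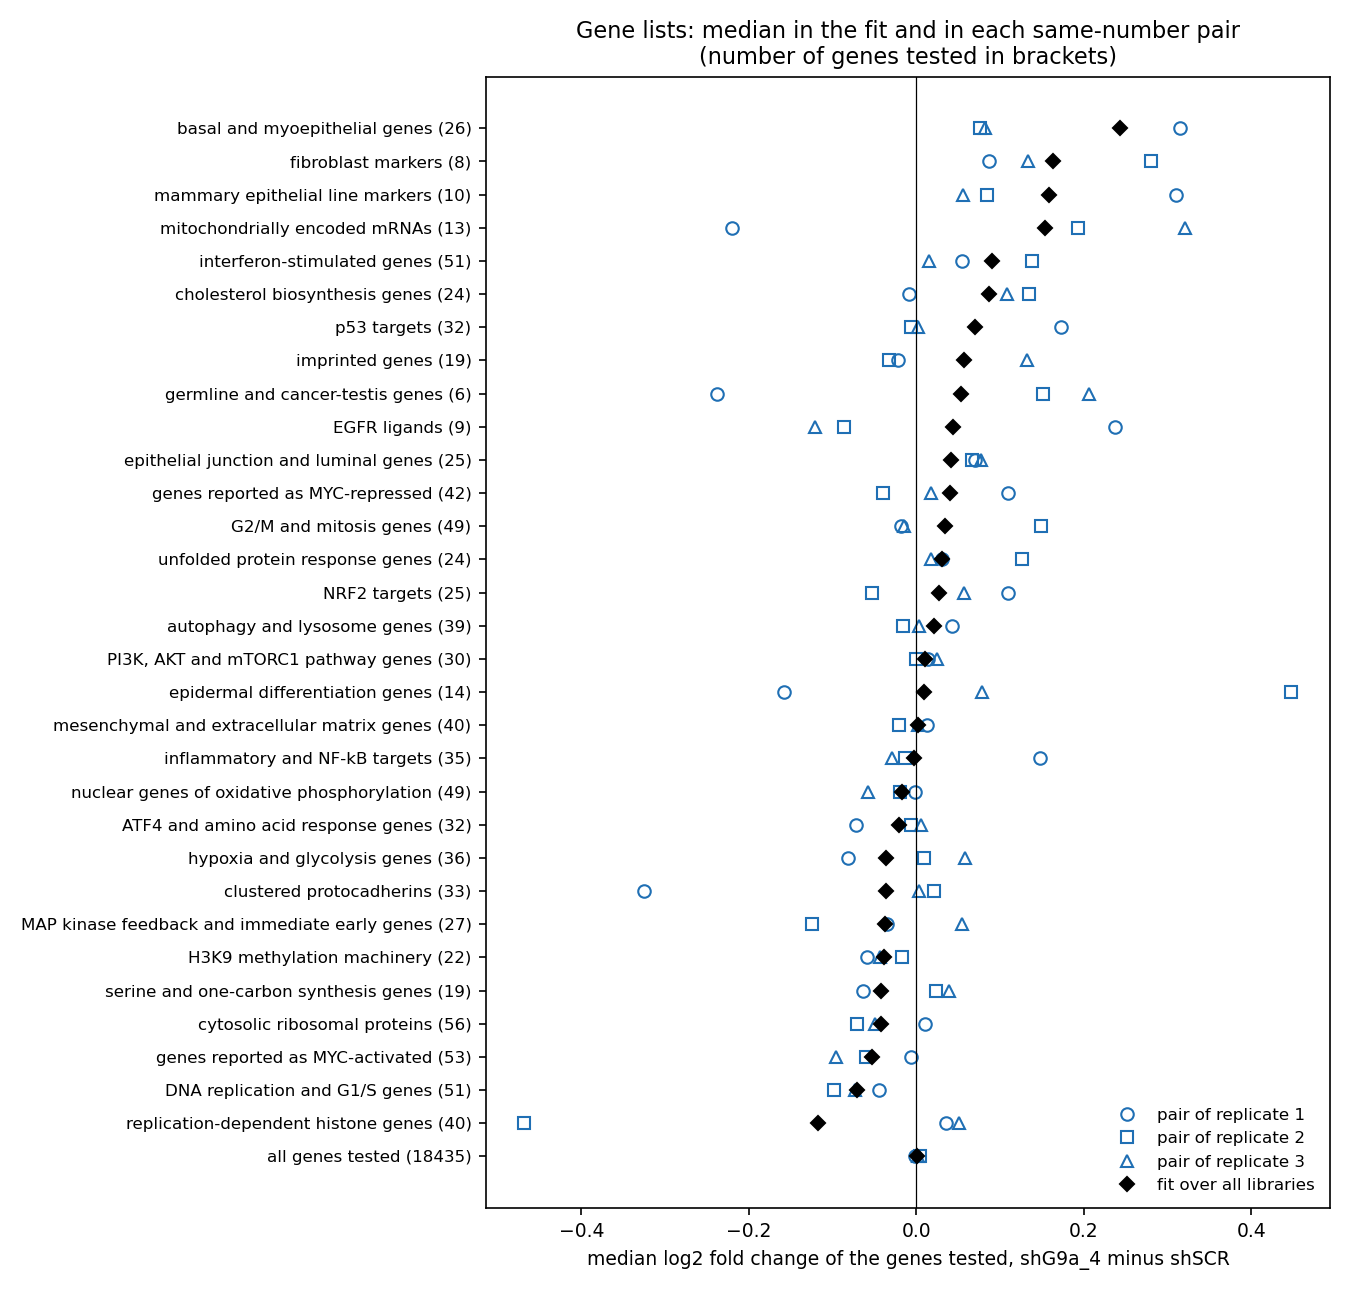
Median log2 fold change, shG9a_4 minus shSCR, of each list with at least 5 genes tested, in the fit (diamonds) and in each same-number pair (open symbols), with all 18435 genes in the lowest line at 0.00. Basal genes lie highest at 0.24 with all 3 pairs above zero, while the histone genes' −0.118 rests on the second pair at −0.47.

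The authors' deposited table for this hairpin gave 10745 genes with values, 66 of them with a posterior probability of differential expression of at least 0.95 (44 higher, 22 lower). Of the 14 genes above, 10 were in the authors' deposited table and 7 had a probability of at least 0.95, 10.6% of its 66. They were RAB21, PRDX3, TRIM37, CCDC25, ANO6, RHEB and MFAP3. Genes that did not pass here also had a probability of at least 0.95 there. Among them were CCND2 (fold 1.33), ITGA4 (0.763), PCNA (1.16) and NUF2 of the G2/M list (1.19). In the authors' deposited table the fold of RAB21 was 1.61, and MIR205HG (fold 1.66), HOXA5 (1.72) and PTGS2 (0.535) had probabilities of 0.000996, 0.0234 and 0.00136. EHMT2, CYLD, PIK3CA, KRT14 and TENT4B were not analysed here from that table.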

How the data were processed

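Stranded total RNA libraries of 75-base paired reads, per the labels' protocols, were analysed from the authors' deposited read counts per gene, whole numbers in the layout of the aligner STAR. The builds GRCh37 and hg19, the aligner STAR (2.5.2a), R (3.3.1), DESeq and edgeR (3.14.0) stand in the submitters' processing notes; annotation, trimming and settings: not given in the sources used here. Uniquely mapped reads only are counted in that layout. The authors also deposited a table per hairpin with, per the file headers, posterior probabilities (scores from 0 to 1) and linear fold ratios, made by a tool that the sources used here do not name.

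Reverse-strand counts were used, which held 94.7 to 95.1% of stranded reads. Classes that name no gene stayed out: no feature (12.2 to 15.4% of read pairs), ambiguous (2.49 to 2.68%), multimapping (4.57 to 5.49%) and unmapped (2.75 to 4.34%). Symbols for 39408 of the 60308 IDs came from a names table and for 15132 from GENCODE 29, and 99.02% of reads lay on named IDs.

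All 9 libraries were fitted with edgeR 4.0.16 in R 4.3.3 (TMM, filterByExpr, quasi-likelihood F-test, two-sided) with a mean per hairpin and a block for the replicate number (4 residual degrees of freedom). The Benjamini-Hochberg adjustment ran over 18435 genes. The block was the main design because the comparison is made within replicate number. Deviations from group means correlated at 0.171 to 0.447 in all 9 same-number pairs. The 18 pairs of unlike number averaged −0.147. The highest of those, shG9a_1 replicate 1 with shG9a_4 replicate 2, was 0.160, close to the lowest same-number value. No label ties the numbers to a batch. limma 3.58.1 and DESeq2 1.42.0 were alternatives. The code was tested on simulated data.

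Named genes were EHMT2, EHMT1, WIZ, ZNF644, MYC and PIK3CA, the genes that passed with a mean of at least 1 CPM and the same sign in all pairs, filled up to 10 per direction by p, and per list the members that passed (up to 4) or the 2 with the lowest p. Others are marked in the text as chosen after their values were seen. The comparison, lists and rule were chosen with earlier results of these data known. The lists not described in the report had no member that passed beyond those named.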

Additional observations from a re-analysis of the deposited data

How the results depend on the processing

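The count of genes that passed in shG9a_4 against shSCR (14) became 5 with no replicate block, 46 with DESeq2 (38 higher, 8 lower) and 139 with no filter on low counts (102 higher, 37 lower). It was 1 to 26 when a library was left out, and 14 to 18 with the other settings. Against shG9a_1 the count of 0 became 95 with DESeq2, 381 with no filter and 3 with unstranded counts, and was 0 to 17 when a library was left out. The fall of EHMT2 in shG9a_4 against shSCR passed with only the 6 libraries of shSCR and shG9a_4 (log2 fold change −0.62, adjusted p = 0.00894 in edgeR), with DESeq2 (−0.62, 7.29e-05) and with no filter (−0.62, 6.34e-09). Its log2 fold change was −0.69 to −0.51 when a library was left out, and it passed without shG9a_1 replicate 1 (0.0121) or 2 (0.0324). Without the block its adjusted p was 0.259.

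Sign changes among named genes came with single libraries left out: without shG9a_4 replicate 2, EHMT1, WIZ and MYC; without shSCR replicate 1, WIZ; without shG9a_4 replicate 3, MT-ND5; without shSCR replicate 2 or shG9a_4 replicate 1, CD14. The log2 fold changes with a library left out ran from −0.12 to 0.074 for EHMT1, −0.21 to 0.19 for WIZ, −0.10 to 0.065 for MYC, −0.0074 to 0.29 for MT-ND5 and −0.055 to 0.25 for CD14. The cause was not tested. Of the values for named genes under the alternatives, 1204 kept their direction and their side of the threshold, 67 lost the call and 32 gained one. Of the list medians, 504 moved by less than the spread between the pairs and 24 by more. That spread is wide where the pairs disagree, so a move within it can include a change of sign. The histone median went from −0.118 to 0.053 in this way. Of 16 alternatives, the sign changed in 10 for mesenchymal and matrix genes and in 8 for inflammatory genes. It changed in 0 for basal, G1/S and interferon-stimulated genes. With 3 cultures per hairpin and a median SE of 0.119, genes under 1 CPM gave no call in the main comparison whatever their fold.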
